A study of Mus musculus with 8 samples.

Results

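The Hedgehog genes Ihh, Shh, Dhh, Ptch1, Smo, Gli1, Gli2, Gli3 and Hhip were examined, 9 of the 24411 gene names in a count table of whole mouse aortas. They were selected by symbol, with their levels in caIKK2EC and Control libraries already known, so those levels and the differences between the groups are a description without a test. All 8 mice carried caIKK2(+/+), a constitutively active form of the kinase IKK2 with a co-translated EGFP behind a loxP-flanked STOP cassette, on an ApoE(-/-) background, in which atherosclerotic plaques form. The 5 caIKK2EC mice were also BMX-CreERT2(+/-), a tamoxifen-inducible Cre recombinase limited to arterial endothelial cells per the labels, and the 3 Control mice were Cre-negative littermates. Both groups received tamoxifen at 1 mg per 20 g of mouse on consecutive days and a Western-type diet for 12 weeks. Controls 1 and 2 were females of 18 weeks and Control 3 was a male of 19 weeks, whereas caIKK2EC 1 and 3 were females of 18 weeks and caIKK2EC 2, 4 and 5 females of 19 weeks. The series names activation early or late in disease, and which of these the 8 mice had is not stated in the labels. Each library is 1 aorta with all its cell types, so fewer cells of a type and less RNA per cell cannot be told apart. The comparison asks how sustained IKK2 activity in arterial endothelium changes the RNA of the diseased vessel wall.

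Hedgehog proteins are secreted, lipid-modified ligands. They bind the receptor Patched (Ptch1), which otherwise holds the membrane protein Smoothened (Smo) inactive, and Smoothened then acts through the primary cilium on the Gli transcription factors. Gli1, Ptch1 and Hhip are themselves transcribed in response to the pathway and are widely used as its readouts. In the artery wall, Gli1 marks a population of adventitial progenitor cells, and in growing bone Ihh is made by maturing chondrocytes.

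Library totals ran from 23461655 to 30808502 counts. Lane numbers in the deposited headers put caIKK2EC 2 to 5 in lane 8 and caIKK2EC 1 with all 3 Controls in lane 7, the only lane with both groups. Endothelial and smooth muscle markers were present in every library, with 10 of 10 genes of each list above the low-count filter. Control 3 stood apart by its summed smooth muscle markers, at 37693 CPM (counts scaled to a common library size, with the TMM correction for composition) against 10389 to 22335 CPM in the other 7 libraries, and by its summed macrophage markers, at 2266 CPM against 7078 to 12480 CPM. Striated muscle markers summed to 1712 CPM in Control 1 and 878 CPM in caIKK2EC 1, against 61.8 to 112 CPM in the remaining libraries. The summed adipocyte markers were highest in caIKK2EC 1, at 6048 CPM against 858 to 3432 CPM. Over all genes, edgeR's quasi-likelihood test with Benjamini-Hochberg adjustment called 0 of 14679 (0.0%), with 1418 genes higher and 1097 lower at an unadjusted p under 0.05. DESeq2, the other count test, called 652 genes higher (4.55%) and 217 lower at an adjusted p under 0.05.

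Of the 9 Hedgehog genes, 8 passed the low-count filter and all 8 had a log2 fold change (caIKK2EC over Control) below 0, with a median of -0.49 against -0.02 over all genes tested. Ihh and Hhip had the largest differences, 4.27-fold and 2.65-fold lower in caIKK2EC aortas, and the other 6 were 1.18-fold to 1.57-fold lower. In Ihh alone the 2 groups did not overlap, where 3.22% of all genes tested had every caIKK2EC library below every Control. EdgeR called 0 of the 8, and DESeq2 called 2 of the 9 lower, Ihh and Hhip, beside a background of 1.51% of genes. Because the genes were selected on this contrast, nothing is read from these counts. DESeq2 called Ihh without any 1 of the 8 libraries, whereas Hhip was called only with all libraries or without caIKK2EC 2. Without caIKK2EC 2 it called 3 of the genes lower, Ihh, Hhip and Gli1. These DESeq2 fits with 1 library left out were added after the values were seen, and nothing is read from them either. The plot of levels by library shows the 8 measured genes.

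**Figure D1:**
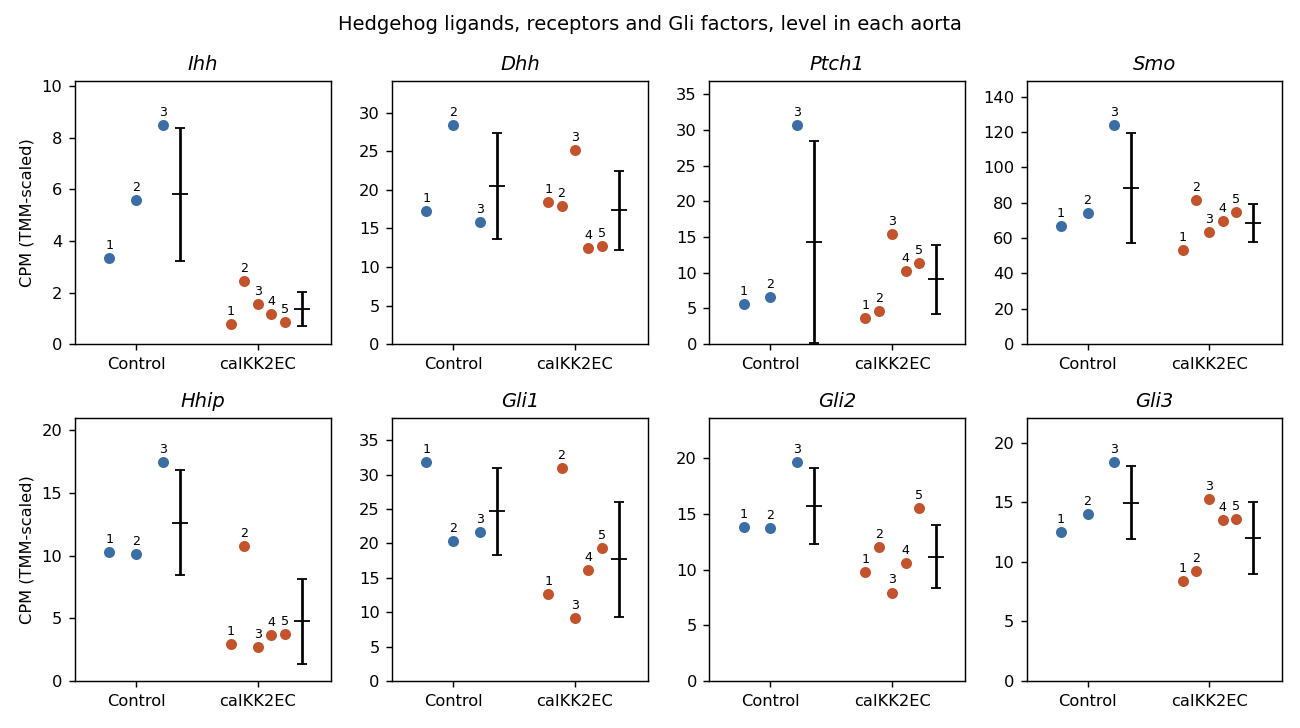
Level of 8 Hedgehog genes in each aorta, in TMM-scaled CPM on linear axes that start at 0, with each point labelled by its replicate number and black bars for the mean ± SD (n = 3 Control, n = 5 caIKK2EC). Ihh is at 3.33 to 8.49 CPM in Control and 0.777 to 2.44 CPM in caIKK2EC libraries, while caIKK2EC 2 lies among the Controls for Hhip and Gli1 and Control 3 is the highest library for Ptch1 and Smo.

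Levels of different genes were compared per kilobase of annotated exon. In Control aortas Smo came first at 15.7 ± 5.51 CPM per kb (SD, n = 3). Gli1 followed at 4.94 ± 1.26 and Dhh at 4.66 ± 1.57 CPM per kb, a pair that differed by less than their spread. Below them lay Gli2 at 2.29 ± 0.497, Ihh at 1.90 ± 0.848, Gli3 at 1.56 ± 0.322, Hhip at 1.39 ± 0.464 and Ptch1 at 1.01 ± 1.00 CPM per kb, where no gene differed from its neighbour by more than the larger SD of the pair. In caIKK2EC aortas the order was Smo at 12.2 ± 1.94, Dhh at 3.94 ± 1.17, Gli1 at 3.54 ± 1.67, Gli2 at 1.62 ± 0.410, Gli3 at 1.25 ± 0.316, Ptch1 at 0.640 ± 0.342, Hhip at 0.525 ± 0.374 and Ihh at 0.447 ± 0.221 CPM per kb (SD, n = 5). Ihh was thus the fifth of the genes in Control and the eighth in caIKK2EC aortas, where Ptch1, Hhip and Ihh differed from one another in that order by less than the larger SD; Smo and Dhh, Gli1 and Gli2, and Gli3 and Ptch1 were the neighbours that differed by more.

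Among the ligands, Ihh (Indian hedgehog, ENSMUSG00000006538, chromosome 1, 74945315 to 74951672, minus strand, GRCm38) had few reads, 600 over the 8 libraries. It was at 3.33, 5.58 and 8.49 CPM in Controls 1 to 3 and at 0.777, 2.44, 1.54, 1.17 and 0.873 CPM in caIKK2EC 1 to 5. All caIKK2EC values lay below the lowest Control, with caIKK2EC 2 the nearest to it. The means were 5.80 ± 2.58 CPM (SD, n = 3) and 1.36 ± 0.674 CPM (SD, n = 5), a log2 fold change of -2.09 (SE 0.42). It was -1.71 without Control 3 and -2.41 without caIKK2EC 2. Within lane 7, where caIKK2EC 1 is the only library of its group, the log2 difference was -2.68.

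Dhh (Desert hedgehog, chromosome 15, 98891152 to 98898540, minus strand), a ligand known from Schwann cells and endothelium, was the most abundant ligand. It was at 17.3, 28.4 and 15.8 CPM in Controls 1 to 3 and at 18.4, 17.9, 25.1, 12.5 and 12.7 CPM in caIKK2EC 1 to 5. The groups overlapped, and the log2 fold change of -0.24 (SE 0.27) was 0.09 without Control 2. The 2 libraries with the most Dhh, Control 2 and caIKK2EC 3, also had the highest summed endothelial markers of their group, at 3222 and 3350 CPM. Control 3, the lowest Control, had the lowest endothelial sum at 1593 CPM, while Schwann cell markers summed to 251 to 269 CPM in Control and 260 to 272 CPM in caIKK2EC libraries; the part of these cells in the Dhh level was not tested. Part of the Dhh gene overlaps Rhebl1 on the same strand. Shh (Sonic hedgehog, chromosome 5, 28456815 to 28467256, minus strand) had 1 read in all, in caIKK2EC 3, and did not pass the filter. A count of 0 allows up to 3 counts, or 0.128 CPM in the smallest library (counting error only), so Shh was not detectable at this depth in the other 7.

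Of the proteins that receive the signal, Smo (chromosome 6, 29735503 to 29761365, plus strand) was at 67.0, 74.4 and 124 CPM in Controls 1 to 3 and at 53.0, 81.3, 63.3, 69.9 and 74.9 CPM in caIKK2EC 1 to 5. Control 3 was far above all other libraries, which overlapped. The log2 fold change of -0.37 (SE 0.21) was -0.05 without Control 3.

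Ptch1 (chromosome 13, 63508328 to 63573598, minus strand), receptor and target in one, varied most within a group. It was at 5.67, 6.58 and 30.7 CPM in Controls 1 to 3 and at 3.73, 4.68, 15.4, 10.2 and 11.4 CPM in caIKK2EC 1 to 5. Both groups thus held low and high libraries, and the log2 fold change of -0.65 (SE 0.62) turned to 0.57 without Control 3. The annotated exons of Ptch1 sum to 14.18 kb. Long transcripts as a class differed between libraries in a like way. The median log2 deviation from the gene mean, taken over the 10% of tested genes with the longest exon sums (at least 9756 bp) minus the 10% with the shortest (at most 1723 bp), was -0.28, -0.07 and 0.19 in Controls 1 to 3 and -0.23, -0.24, 0.16, 0.25 and 0.16 in caIKK2EC 1 to 5. The 4 libraries above 0 were the 4 with the most Ptch1. The part of transcript length in the Ptch1 level was not tested.

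Hhip (Hedgehog-interacting protein, chromosome 8, 79965851 to 80058006, minus strand) is a membrane-anchored protein that binds and sequesters the ligands and is induced by the pathway. It was at 10.3, 10.1 and 17.5 CPM in Controls 1 to 3 and at 2.95, 10.8, 2.69, 3.63 and 3.75 CPM in caIKK2EC 1 to 5. In 4 caIKK2EC libraries Hhip lay far below every Control, whereas caIKK2EC 2 lay between the Controls. The means were 12.6 ± 4.21 CPM (SD, n = 3) and 4.76 ± 3.40 CPM (SD, n = 5), with a log2 fold change of -1.41 (SE 0.44), of -1.10 without Control 3 and of -1.95 without caIKK2EC 2. The difference within lane 7 was -2.02.

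Ihh and Hhip had the largest differences of the set, and the 250 bases before their annotated starts are shown for that reason, 5′ to 3′ on the gene's strand, with CpG dinucleotides in capitals (RefSeq, GRCm38.p6). The Ihh window is chr1:74951673-74951922 and the Hhip window chr8:80058009-80058258, both on the minus strand.
Ihh: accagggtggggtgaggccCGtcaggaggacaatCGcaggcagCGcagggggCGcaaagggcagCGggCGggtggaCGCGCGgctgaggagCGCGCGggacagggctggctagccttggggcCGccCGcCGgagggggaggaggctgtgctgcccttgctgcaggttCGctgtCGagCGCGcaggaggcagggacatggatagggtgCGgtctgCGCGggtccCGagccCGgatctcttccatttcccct
Hhip: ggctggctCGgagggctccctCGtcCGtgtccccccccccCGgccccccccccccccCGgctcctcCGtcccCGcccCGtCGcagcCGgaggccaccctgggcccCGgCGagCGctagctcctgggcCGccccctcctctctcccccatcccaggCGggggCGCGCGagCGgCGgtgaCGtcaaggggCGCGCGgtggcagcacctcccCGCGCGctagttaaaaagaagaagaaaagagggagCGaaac
Both windows are GC-rich, with 72.0% G and C and 24 CpG in Ihh and 76.0% and 28 CpG in Hhip, against medians of 52.4% and 6 over 32851 windows of the same length. Neither strand of either window held the Gli motif GACCACCCA (in 0.225% of all windows), the NF-κB consensus motif (7.25%) or the CArG box that serum response factor binds (1.47%). The same was true of the other 5 of the Hedgehog genes with a window, Dhh, Smo, Ptch1, Gli2 and Gli3. No window was available for Gli1 and Shh. High GC was not particular to Ihh and Hhip. Ptch1 had 78.4% and 41 CpG, Gli3 72.8% and 34, Smo 68.4% and 15, Gli2 67.2% and 22, and Dhh 59.6% and 9.

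Among the Gli factors, Gli1 (chromosome 10, 127329882 to 127341974, minus strand), an activator and pathway readout, was at 31.9, 20.4 and 21.7 CPM in Controls 1 to 3 and at 12.7, 30.9, 9.18, 16.2 and 19.4 CPM in caIKK2EC 1 to 5. As with Hhip, caIKK2EC 2 was the highest of its group and lay among the Controls, while the other 4 were below every Control. The log2 fold change was -0.48 (SE 0.34), from -0.23 without Control 1 to -0.78 without caIKK2EC 2, the only library whose removal led DESeq2 to call Gli1. Gli1 overlaps Arhgap9 and Gm47200 on the other strand, and whether counting used strand is not known, so the share of their reads in its counts is not known either.

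Gli2 (chromosome 1, 118834132 to 119053619, minus strand), the main activator of the first response, was at 13.8, 13.7 and 19.7 CPM in Controls 1 to 3 and at 9.79, 12.0, 7.94, 10.6 and 15.5 CPM in caIKK2EC 1 to 5. In Gli2 only caIKK2EC 5 reached the range of the Controls, and the log2 fold change of -0.49 (SE 0.22) was -0.30 without Control 3. Gli3 (chromosome 13, 15463235 to 15730026, plus strand), which mostly acts as a repressor when no ligand is bound, was at 12.5, 14.0 and 18.4 CPM in Controls 1 to 3 and at 8.35, 9.23, 15.3, 13.5 and 13.6 CPM in caIKK2EC 1 to 5. Its groups overlapped, and the log2 fold change of -0.32 (SE 0.23) was -0.14 without Control 3. As for Ptch1, caIKK2EC 1 and 2 were the lowest libraries and Control 3 the highest. The plot of differences sets these values side by side.

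**Figure D2:**
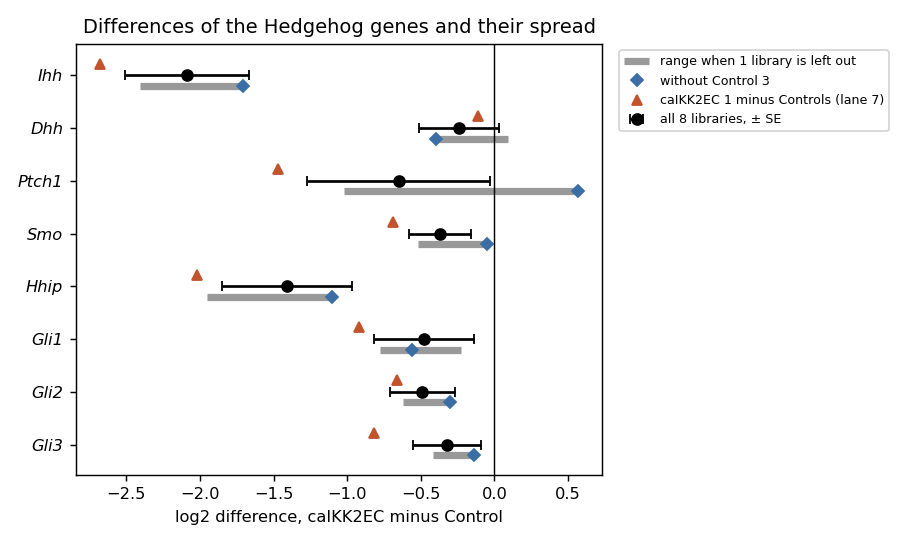
Log2 difference of caIKK2EC minus Control for 8 Hedgehog genes, with black points ± SE for the edgeR fit over all 8 libraries, grey bars for the range when 1 library is left out, blue diamonds for the value without Control 3 and orange triangles for caIKK2EC 1 against the Controls of lane 7. Ihh (-2.41 to -1.71) and Hhip (-1.95 to -1.10) keep their distance from 0 with any 1 library left out, while Ptch1 runs from -1.02 to 0.57 and Dhh from -0.42 to 0.09.

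Control 3 was the highest of all libraries for 6 of the 8 measured genes, all but Dhh and Gli1, and smooth muscle genes moved with it. Of 10 smooth muscle markers, 7 were lower in caIKK2EC aortas at an unadjusted p under 0.05, beside 7.47% of all genes tested. EdgeR called 0 of the markers and DESeq2 called 2 lower (Myh11 and Synpo2), beside 1.51% of genes. Acta2 was the most abundant of the markers, and their median log2 fold change was -0.66. Their summed level was 18798, 22335 and 37693 CPM in Controls 1 to 3 and 10389, 21353, 14568, 13976 and 14382 CPM in caIKK2EC 1 to 5, so caIKK2EC 2 lay among the Controls here too. Divided by this sum, Ihh was at 0.177, 0.250 and 0.225 CPM per 1000 smooth muscle CPM in Controls 1 to 3 and at 0.0748, 0.114, 0.106, 0.0840 and 0.0607 in caIKK2EC 1 to 5. On that scale, too, every caIKK2EC library was below every Control, and the ratio of the means was 2.47. Hhip was at 0.550, 0.450 and 0.464 in Controls 1 to 3 and at 0.284, 0.505, 0.185, 0.260 and 0.261 in caIKK2EC 1 to 5, a ratio of the means of 1.63 with caIKK2EC 2 among the Controls. Smo, in contrast, was at 3.29 to 3.56 in Control and 3.81 to 5.21 in caIKK2EC libraries, higher in every caIKK2EC library on that scale. The other 5 genes overlapped. The ratio of the means was 0.724 for Smo and 0.707 to 0.914 for those 5 genes. Except in caIKK2EC 2, the smooth muscle sum itself was below every Control, so a gene with unchanged CPM rises on that scale. The share of all genes whose groups are apart on that scale was not computed. Dividing by these markers was chosen after the values were seen. The part of smooth muscle content in the remaining differences was not tested.

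**Figure D3:**
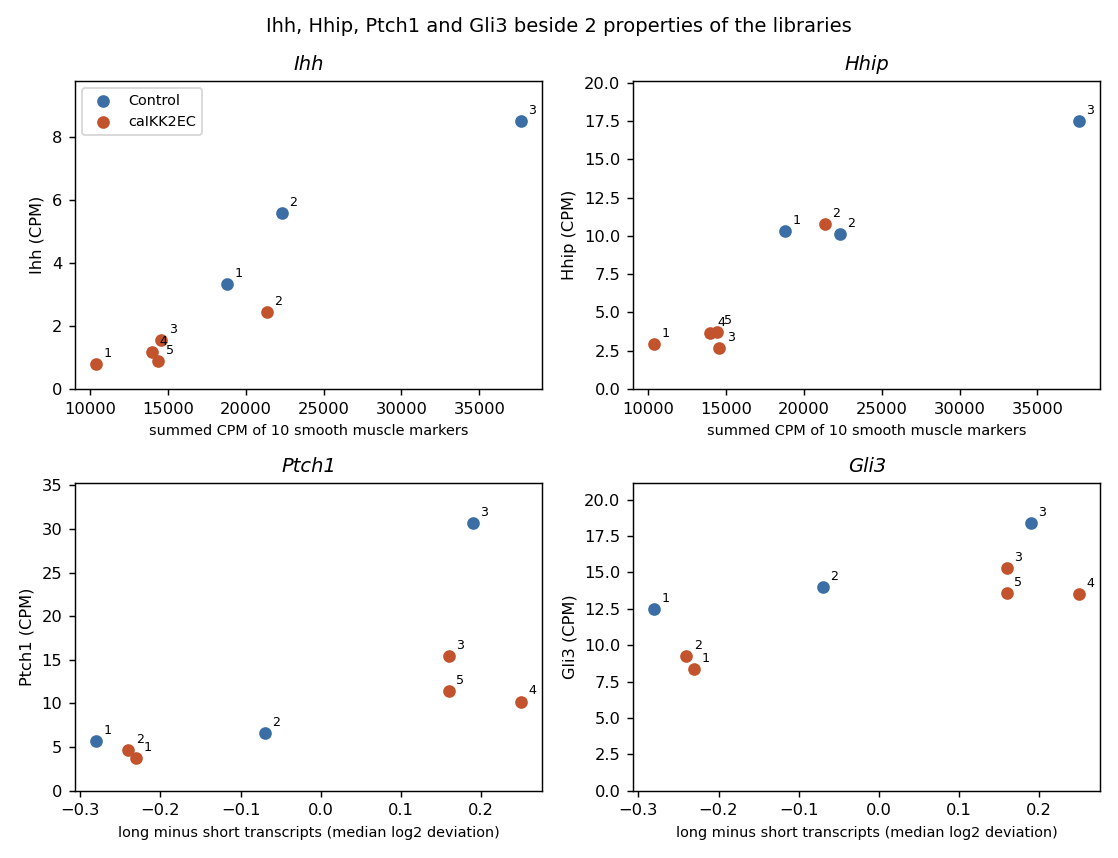
Ihh and Hhip (CPM, top) against the summed CPM of 10 smooth muscle markers, and Ptch1 and Gli3 (CPM, bottom) against the log2 deviation of long minus short transcripts, with 1 point per library labelled by replicate number. Control 3 lies at the far right of both top panels, caIKK2EC 2 sits among Controls 1 and 2 for Hhip but below them for Ihh, and the 4 libraries with a long-transcript value above 0 have the most Ptch1.

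Markers of other cells that could carry Hedgehog genes were also measured. Cartilage markers, with Acan the most abundant, summed to 113 to 221 CPM in Control and 148 to 252 CPM in caIKK2EC libraries. Of 12 tested, 11 had a log2 fold change above 0, the smallest of them Pth1r at 0.00. The share of all genes above 0 was not computed. At an unadjusted p under 0.05, 1 of the 12 was higher and 0 lower, beside 9.66% and 7.47% of all genes tested. EdgeR called 0 of the 12, and DESeq2 called 1 higher (Col10a1), beside 4.55% of genes. Epithelial markers summed to 39.3 to 55.5 CPM in Control and 28.4 to 53.0 CPM in caIKK2EC libraries. Markers of adventitial fibroblasts, with Col1a1 the most abundant, summed to 9599 to 12310 CPM in Control and 10962 to 13609 CPM in caIKK2EC libraries, with a median log2 fold change of 0.17, and caIKK2EC 3, the lowest library for Gli1, had the lowest sum of its group. Macrophage markers, with Lyz2 the most abundant, summed to 2266 to 7294 CPM in Control and 8888 to 12480 CPM in caIKK2EC libraries. Of these markers, 10 of 11 were higher at an unadjusted p under 0.05, beside 9.66% of all genes tested. EdgeR called 0 of the 11 and DESeq2 called 10 higher, beside 4.55% of genes. The part of these cells in the Hedgehog levels was not tested.

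The other genes of the pathway were taken as 5 lists of 65 genes, of which 64 were in the table and 61 passed the filter. EdgeR called 0 of the 61 at an adjusted p under 0.05. DESeq2 called 1 higher, Arrb2, and 0 lower, beside 4.55% and 1.51% of genes. With an unadjusted p under 0.05 there were 7 higher (11.5%) and 3 lower (4.92%), beside 9.66% and 7.47% of all genes tested. The median log2 fold change over the 61 genes was -0.13.

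Of the genes that process and release the ligands, 2 of 6 were higher and 0 lower at an unadjusted p under 0.05. Disp2, a relative of the ligand-releasing transporter Dispatched, was at 1.85 ± 0.607 CPM (SD, n = 3) in Controls against 5.82 ± 4.40 CPM (SD, n = 5) in caIKK2EC aortas, with caIKK2EC 1 and 4 at 9.52 and 11.6 CPM and the other 3 at 2.06 to 3.07 CPM. Its log2 fold change was 1.66 (SE 0.62; adjusted p in edgeR = 0.217). Disp1, which encodes the Dispatched transporter, had a log2 fold change of 0.32 (SE 0.14; adjusted p in edgeR = 0.283). Scube3, the most abundant of this list and a secreted protein of the family that carries ligands away from the cell, was at 90.1, 140 and 278 CPM in Controls 1 to 3 and at 57.7 to 134 CPM in caIKK2EC libraries. Its log2 fold change of -0.61 (SE 0.35) did not pass and was -0.06 without Control 3.

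The co-receptors and membrane regulators had 0 of 8 genes at an unadjusted p under 0.05, and all 8 fold changes were below 0 with a median of -0.21. Gpc6, a glypican and the most abundant of them, was at 229 ± 60.6 CPM (SD, n = 3) in Controls against 204 ± 35.9 CPM (SD, n = 5) in caIKK2EC aortas, and its log2 fold change of -0.17 (SE 0.20) was 0.07 without Control 3. Of the 22 genes that relay the signal between Smoothened and Gli, 2 were higher and 2 lower at an unadjusted p under 0.05. Arrb2, a β-arrestin of many receptors that macrophages also express, was at 76.6, 61.1 and 39.6 CPM in Controls 1 to 3 and at 79.3 to 116 CPM in caIKK2EC libraries, all above the Controls. Its log2 fold change was 0.69 (SE 0.20, adjusted p in edgeR = 0.151, in DESeq2 = 0.0297) and 0.48 without Control 3. How many of all genes had every caIKK2EC library above every Control was not computed. Grk2 (Adrbk1 in the table), a kinase that phosphorylates Smoothened and many other receptors, had a log2 fold change of 0.22 (SE 0.09; adjusted p in edgeR = 0.275). Evc, a protein of the ciliary base that binds Smoothened, was at 64.7 ± 15.3 CPM (SD, n = 3) in Controls against 46.6 ± 10.4 CPM (SD, n = 5) in caIKK2EC aortas, a log2 fold change of -0.47 (SE 0.20; adjusted p in edgeR = 0.269), and of -0.26 without Control 3. Spop, the adaptor that targets Gli proteins for degradation and the most abundant of the list, was at 200 ± 13.8 and 202 ± 9.54 CPM, a log2 fold change of 0.01 (SE 0.10).

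In the list of ciliary transport genes, 2 of 12 were higher and 0 lower at an unadjusted p under 0.05, with a median of -0.03. The kinesin subunit gene Kif3b had a log2 fold change of 0.37 (SE 0.15; adjusted p in edgeR = 0.243) and the intraflagellar transport gene Ift122 one of 0.28 (SE 0.12; adjusted p in edgeR = 0.279). Kif3a, the most abundant, was at 88.7 ± 11.0 CPM (SD, n = 3) and 93.2 ± 17.0 CPM (SD, n = 5).

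Of 13 tested genes known as Gli targets in other tissues, 1 was higher and 1 lower at an unadjusted p under 0.05, and 11 fold changes were below 0 with a median of -0.26. Ccnd1, the cyclin D1 gene, had a log2 fold change of 0.34 (SE 0.14; adjusted p in edgeR = 0.249). Rab34, a small GTPase gene, was at 93.1 ± 15.5 CPM (SD, n = 3) in Controls against 74.2 ± 10.9 CPM (SD, n = 5) in caIKK2EC aortas, a log2 fold change of -0.33 (SE 0.15; adjusted p in edgeR = 0.286), and of -0.18 without Control 3. Sfrp1, a secreted Wnt inhibitor and the most abundant of the list, was at 382 ± 154 and 349 ± 112 CPM, and its log2 fold change of -0.13 (SE 0.31) was 0.18 without Control 2. These genes answer to other pathways as well.

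**Figure D4:**
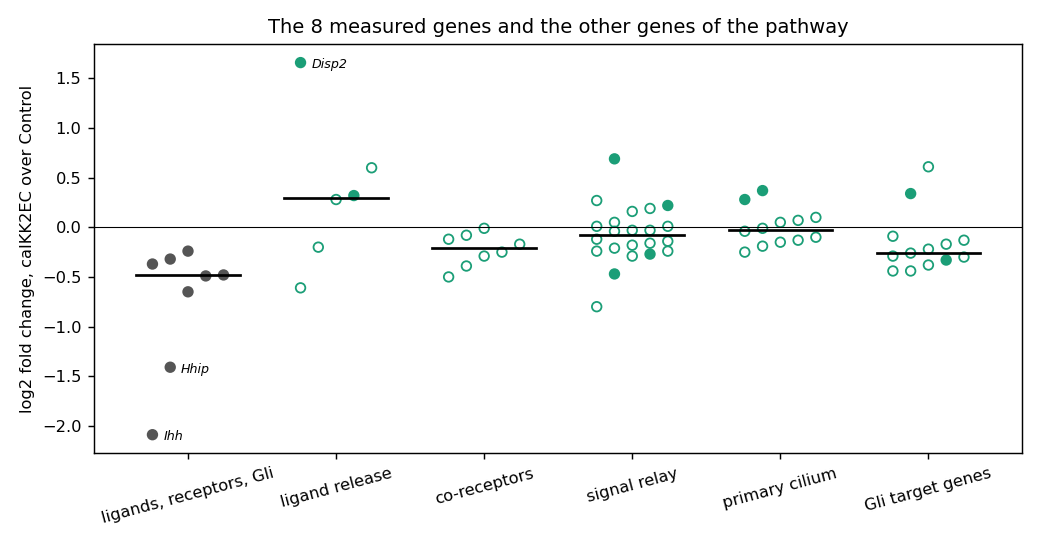
Log2 fold change (caIKK2EC over Control) of the 8 measured ligands, receptors and Gli factors (grey) and of 61 other pathway genes in 5 lists (green), with filled green points for an unadjusted edgeR p under 0.05 and black lines for each list's median. Ihh and Hhip lie lowest, Disp2 highest, and the medians of the 5 lists lie between -0.26 and 0.30.

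The genes whose levels followed a Hedgehog gene most closely were sought among 12096 genes by Pearson's r of log2 CPM over the 8 libraries. This is a description, since these libraries also share the group difference and the marker shifts given above. Nearest to Ihh were Col19a1 (r = 0.989), a collagen gene, Anks1 (0.989) and Maf1 (0.985), a repressor of RNA polymerase III. Col19a1 was at 3.26, 5.18 and 6.84 CPM in Controls 1 to 3 and at 0.894, 2.95, 1.84, 1.07 and 1.03 CPM in caIKK2EC 1 to 5, highest in Control 3 and, within caIKK2EC, in caIKK2EC 2, as for Ihh. Nearest to Hhip were Sh3bgr (0.994), Slc4a3 (0.989), an anion exchanger gene, and Car11 (0.984), and all 3 had caIKK2EC 2 within the range of the Controls or at its lower edge. Sh3bgr, for example, was at 117 CPM in caIKK2EC 2 and 66.6 to 73.1 CPM in the other caIKK2EC libraries, against 117 to 150 CPM in Control.

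Nearest to Gli1 were Clec11a (0.969), a secreted growth factor gene of bone-forming stroma, Ndrg2 (0.967) and Ntrk3 (0.967), a neurotrophin receptor gene. Clec11a was at 64.8, 44.9 and 50.9 CPM in Controls 1 to 3 and at 26.6, 53.9, 24.1, 34.0 and 44.3 CPM in caIKK2EC 1 to 5, with caIKK2EC 3 and 1 lowest as for Gli1. Nearest to Ptch1 were Erc1 (0.988), Pcnx (0.980) and Ahnak (0.979), whose annotated exons sum to 16.27, 15.61 and 19.94 kb. The genes nearest to Ptch1 were thus long transcripts, and none of them is a pathway gene of the lists used here. Long exon sums were also found near other Hedgehog genes, with 30.17 kb for Ntrk3 and 10.14 kb for Anks1. The remaining genes named near Ihh, Hhip and Gli1 had 1.57 to 8.6 kb.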

How the data were processed

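Poly(A) RNA of 8 whole aortas went into directional libraries read as single 50-nt reads, per the labels' protocols. The deposited table holds raw counts per gene symbol, whole numbers with no normalization. STAR 2.7.0e, FastQC 0.11.5, DESeq2 1.22.2 and GRCm38 (mm10) appear in the submitters' processing notes. No source used here gives the counting program, annotation or use of strand, and reads of overlapping or antisense genes therefore cannot be told apart. The authors' deposited table of log2 fold changes and adjusted p-values holds 16671 genes; of 869 genes called by DESeq2 here, 868 are called there. Among the 24411 names in the count table, 27 had been turned into dates. Columns were matched to samples by the identifier in their name. Replicates are separate samples per the labels, and pairs of libraries had a chi-square of at least 17.61 per degree of freedom, so none was a duplicate.

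Counts were tested with edgeR 4.0.16 (R 4.3.3; TMM, default filter by group, robust quasi-likelihood fit, group as the only term, Benjamini-Hochberg adjustment over 14679 genes, threshold 0.05). DESeq2 1.42.0 on genes with a total of 10 or more was an alternative, with 14340 adjusted p-values. CPM uses TMM-scaled library sizes, log2 CPM a prior count of 2. Coordinates and exon lengths come from GENCODE M21 (GRCm38). Both procedures were tested on simulated data. Other settings were size factors of DESeq2, no or a stricter filter (1 CPM in 3 libraries), lane, sex, age or replicate number in the model, 1 library left out, lane 7 alone, and log2(CPM + 0.5). The Hedgehog genes, the lists and the tests were chosen with earlier results of these data known. Named pathway genes are, per list, up to 3 with the smallest unadjusted edgeR p under 0.05 and the most abundant; Mosmo was not found in the table and is not analysed here. Likeness was searched among named genes whose mean log2 CPM was 1 or more, and the 3 nearest are given.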

Additional observations from a re-analysis of the deposited data

Results flagged for a closer look

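In each of 22 genes (8 Hedgehog genes and 14 other pathway genes), the highest and lowest of the 5 caIKK2EC libraries were compared with the rest by the gap to the nearest library over the whole range, and 3 lay past Dixon's critical value of 0.71. Chance gives about 1 in 20 such groups. Hhip in caIKK2EC 2 was at 10.8 CPM, with the other 4 at 2.69 to 3.75 CPM. Rab34 in caIKK2EC 2 was at 93.6 CPM, with the others at 68.3 to 70.7 CPM. Gpc6 in caIKK2EC 1 was at 140 CPM, with the others at 211 to 225 CPM.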

How the results depend on the processing

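The number of genes past the threshold over all genes, 0 in edgeR, was 869 with DESeq2 (652 higher, 217 lower), 661 with age as a covariate (407 higher, 254 lower), and 0 to 359 when 1 library was left out, with 359 (230 higher, 129 lower) without caIKK2EC 2. Of the other pathway genes, 0 passed in edgeR, 1 with DESeq2 (Arrb2, log2 fold change 0.70) and 1 with age as a covariate (Evc, -0.61); among Controls, age sets only Control 3 apart. The DESeq2 count of Hedgehog genes called lower was 2 with all libraries and 1 to 3 with 1 left out: 1, Ihh, in 7 cases and 3 (Ihh, Hhip and Gli1) without caIKK2EC 2. The DESeq2 fits with 1 library left out were added after the values were seen. For the 8 Hedgehog genes, 137 of 144 alternative log2 differences lay within the pooled SD of the replicates and 7 did not. With lane as a covariate these were -2.89 for Ihh, -1.94 for Ptch1, -0.74 for Smo and -0.84 for Gli3, within lane 7 -0.82 for Gli3, and without Control 3 or with sex as a covariate 0.57 for Ptch1. The pooled SD was 1.05 for Ptch1, 0.57 for Gli1, 0.43 for Dhh and 0.35 for Gli3, larger than their main differences. A turn of sign, as in Dhh, can therefore lie within it. The settings also overlap: Control 3 is the only male, and lane as a covariate compares caIKK2EC 1 alone with the Controls. Of the 14 other named genes, the sign turned for Gpc6 (-0.28 to 0.07 with 1 library left out, 0.07 without Control 3 and with sex as a covariate), Spop (-0.02 to 0.06, with -0.02 without Control 2 and -0.01 without caIKK2EC 3), Kif3a (-0.01 to 0.17, and -0.32 with lane as a covariate, -0.31 within lane 7, -0.01 without Control 1 or caIKK2EC 3) and Sfrp1 (-0.41 to 0.18, with 0.18 without Control 2, and 0.04 with age); the cause was not tested. A fit with the replicate number as a block, over replicates 1 to 3, called 0 genes, gave -1.88 for Ihh and -1.44 for Hhip, and turned Dhh to 0.05 and Sfrp1 to 0.10. Dhh also turned, to 0.09, without Control 2. The titles do not say that the numbers pair mice. The correlations of same-numbered libraries' deviations were 0.335, 0.099 and 0.097, each the highest of its libraries, a hint from the data only. The highest, 0.335, is that of Control 1 and caIKK2EC 1, the 2 libraries with raised striated muscle markers (1712 and 878 CPM). The part of those markers in the correlation was not tested. Ihh rests on 20 to 185 reads per library, so its counting error is larger than that of the other 7 measured genes. The p-values set the group difference against the spread between libraries of the same group.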

Other observations

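Genes of the growth plate, in which Ihh and the parathyroid hormone-related peptide form a feedback loop, were measured in the same libraries. Col10a1, the collagen of hypertrophic cartilage, was at 1.37, 1.44 and 0.459 CPM in Controls 1 to 3 and at 2.56, 3.08, 3.97, 4.81 and 2.07 CPM in caIKK2EC 1 to 5, every caIKK2EC library above every Control. Its log2 fold change was 1.58 (SE 0.44; adjusted p in edgeR = 0.141, in DESeq2 = 0.00916). Col2a1, the main cartilage collagen, was at 8.28 ± 7.96 CPM (SD, n = 3) in Controls against 21.6 ± 13.6 CPM (SD, n = 5) in caIKK2EC aortas. Its log2 fold change of 1.40 (SE 0.68, adjusted p in edgeR = 0.332) was 2.55 without Control 3 and 0.63 with lane as a covariate. The peptide's gene Pthlh was at 9.44 ± 2.90 and 7.90 ± 2.04 CPM, and its receptor gene Pth1r at 28.3 ± 8.19 and 28.3 ± 2.52 CPM. Col2a1, Pthlh and Pth1r overlapped between the groups, whereas Ihh and Col10a1 did not and differed in opposite directions. These 5 genes were picked after values were seen. Col10a1 was low in every library, and of the 12 cartilage markers tested DESeq2 called it alone, beside 4.55% of genes called higher. The share of all genes with every caIKK2EC library above every Control was not computed.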
